A study of Mus musculus with 20 samples.

Results

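Autosomal gene expression was compared between male and female C57 mice, with 5 libraries titled M-C57-Con1 to M-C57-Con5 against 5 titled F-C57-Con1 to F-C57-Con5. A gene counted as autosomal when its deposited locus was on neither sex chromosome nor the mitochondrial genome, and it was kept when at least 5 of these 10 libraries reached 0.5 FPKM (fragments relative to transcript length and to all mapped fragments). This left 12487 of 12774 autosomal genes and of 13256 listed genes in all, 14 of them on unplaced scaffolds. The tissue was hippocampus, the genotype field of these 10 samples reads WT, and the labels name no treatment and no age. The series also holds 5 male and 5 female libraries of Fmr1 mutant mice, titled KO and called a knockdown in the genotype field, in which the same contrast was read beside that in C57. Fmr1, an X-linked gene for an RNA-binding protein of neurons, averaged 10.6 FPKM (SD 0.558) in female C57, 11.4 FPKM (SD 0.527) in male C57, 3.32 FPKM (SD 0.327) in female KO and 3.56 FPKM (SD 0.187) in male KO, and the labels give neither the line nor the allele of the mutants. No label says that the 5 samples of a group are separate mice, so the p-values measure the spread between these samples, which may be technical.

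Males and females share their autosomes, so autosomal genes can differ between the sexes only through how they are used. Known routes are the gonadal steroids, whose receptors are transcription factors present in hippocampal neurons, and the dosage of X- and Y-linked regulators. In the adult rodent brain such autosomal differences are usually small outside a few hypothalamic and limbic nuclei. Liver and muscle differ far more between the sexes.

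The sex labels held in every C57 library. The Y-linked Ddx3y measured 0 to 0.0286 FPKM in the 5 female libraries and 12.6 to 17.6 FPKM in the 5 male libraries, and the X-linked Eif2s3x, which escapes X inactivation, measured 37.4 to 42.4 FPKM in females and 26.0 to 28.7 FPKM in males. Over the 20 libraries, 12766 to 12899 genes reached 0.5 FPKM, mitochondrial genes held 17.5 to 20.4% of the summed FPKM, and the lowest correlation of a library with any other was 0.977. Depth cannot be read from FPKM. Female C57 replicate 4 stood apart in Ttr, the transthyretin gene of the choroid plexus, with 878 FPKM against 8.37 to 169 FPKM in the other 9 C57 libraries, and 3 KO libraries also exceeded 500 FPKM.

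Few autosomal genes passed the threshold between male and female C57 hippocampus. At an adjusted p below 0.05 (limma, Benjamini-Hochberg over all 12956 genes tested), 11 of the 12487 passed (0.0881%), 9 of them higher in males (0.0721%) and 2 lower (0.016%). The genes higher in males were Atp2a1, Ckm, Myh4 and Acta1, all genes of skeletal muscle fibres, and Ccdc88a, Ola1, Habp4, Ankrd12 and Esf1, all of which were expressed in both sexes. Nat8f5 and Sema4c were lower in males. Atp2a1, Ckm and Myh4 reached the filter through the male libraries alone, so that some difference was fixed by the filter, and 8 calls remain apart from them. With an unadjusted p below 0.05, 720 autosomal genes were higher in males (5.77%) and 562 lower (4.5%), 1282 in all (10.3%). Where no gene differs, that threshold is passed by a share of 0.05 on average. The number of calls does not tell how many genes differed. The 12956 genes of the adjustment include X- and Y-linked genes that differ by sex, which eases the threshold for autosomal genes. Adjustment over autosomal genes alone passed 8 of the 11, 7 of them higher in males.

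The call count rested on the spread estimated over all 4 groups and on single libraries. A fit of the 10 C57 libraries alone passed 4 autosomal genes, 3 of them among the 11, namely Atp2a1, Ckm and Myh4. The count was 5 without female C57 replicate 3 or male C57 replicate 5, 6 without female C57 replicate 2 or male C57 replicate 1, and 7 without female C57 replicate 4. It was 4 with a filter of 2 FPKM, which leaves out Ckm, Atp2a1, Myh4, Nat8f5 and Sema4c, 7 after a trend on GC content was removed, 8 with adjustment over autosomal genes alone and 8 without the 4 libraries above 500 FPKM of Ttr.

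**Figure D1:**
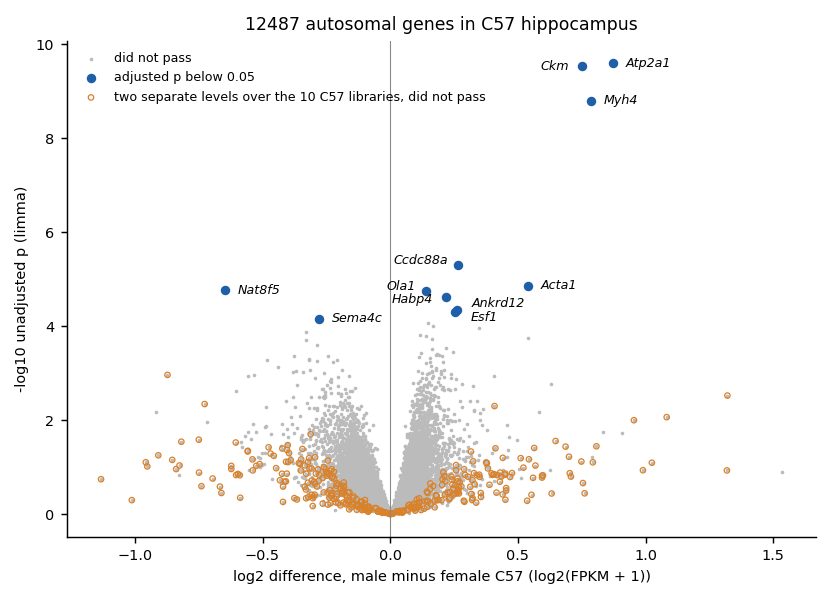
Each point is 1 of 12487 autosomal genes, with the male minus female C57 difference in log2(FPKM + 1) on the horizontal axis and the negative log10 of the unadjusted limma p on the vertical axis. Filled points are the 11 genes past an adjusted p of 0.05 and open circles are genes whose 10 values fell on 2 separate levels, with adjusted p of 0.347 for Prkar2b at a difference of 0.95.

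Differences were small across the autosomes. The median absolute difference was 0.06 on the log2(FPKM + 1) scale against a median standard error of 0.07, and 96.1% of the genes differed by less than 0.25. The median signed difference was -0.0019. The share of its genes with an unadjusted p below 0.05 ran from 8.63% on chromosome 5 to 14.1% on chromosome 13. Groups that did not overlap at all were found for 268 genes (2.15%), with all 5 males above all 5 females for 172 (1.38%) and below for 96 (0.769%). Differences on this scale understate the change of genes of low level.

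Atp2a1, Myh4 and Ckm had the largest differences among the 11 genes, with the filter favouring males for all 3, and among the other 8 genes the largest were those of Nat8f5 (-0.65) and Acta1 (0.54). Ckm, the muscle creatine kinase that regenerates ATP from phosphocreatine, lies at chr7:19404776-19422841. It was listed at 0 in all 5 female libraries and measured 1.05, 0.556, 0.510, 0.819 and 0.535 FPKM in male replicates 1 to 5. Atp2a1 at chr7:126445858-126463108 encodes the calcium pump of the sarcoplasmic reticulum in fast-twitch fibres. It measured 0, 0.0692, 0.0725, 0.0345 and 0.0227 FPKM in female replicates 1 to 5 and 0.707, 1.09, 0.781, 1.36 and 0.664 FPKM in male replicates 1 to 5. Myh4 at chr11:67238029-67260446 encodes a fast-fibre myosin heavy chain. Its values were 0.0863, 0.103, 0.0840, 0.0929 and 0.0260 FPKM in females and 1.26, 1.03, 0.505, 0.798 and 0.773 FPKM in males. For these 3 genes every male library lay well above every female library, and all the levels were low. The differences were 0.75 (SE 0.06) for Ckm, 0.87 (SE 0.07) for Atp2a1 and 0.78 (SE 0.07) for Myh4 on the log2(FPKM + 1) scale. The adjusted p of limma was 5.44e-07 for Ckm and Atp2a1 and 2.59e-06 for Myh4. As ratios of mean FPKM, Atp2a1 was 23.1-fold and Myh4 11.1-fold higher in males, and none is given for Ckm against a group listed at 0.

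Acta1, the skeletal alpha-actin at chr8:123891769-123894751, was present in both sexes. It measured 3.22, 2.87, 2.61, 2.62 and 2.79 FPKM in female replicates 1 to 5 and 5.41, 4.58, 3.27, 4.30 and 5.50 FPKM in male replicates 1 to 5. The lowest male library, replicate 3, was only just above the highest female library. The difference was 0.54 (SE 0.09, adjusted p = 0.0162, limma), a ratio of means of 1.63. The adjusted p was 0.0506 to 0.0637 without any 1 of female replicate 3, female replicate 4, male replicate 1 and male replicate 5. In GENCODE M21, Ckm, Atp2a1 and Acta1 lie opposite A930016O22Rik, Rabep2 and Gm20388 on the other strand, and with the strand setting not given, reads of such partners cannot be told apart.

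The promoters of these 4 genes are shown because the genes stood together in the male libraries and belong to 1 known regulatory class, muscle genes bound by MyoD-type factors at E-boxes. Each sequence covers 250 bases before to 50 after the start site, on the gene's strand, from RefSeq on GRCm38.p6. Capitals mark E-boxes, CANNTG, a motif form that is its own reverse complement, so that each match counts for both strands. The windows are chr7:19410844-19411143 (plus strand) for Ckm, chr7:126463024-126463323 (minus strand) for Atp2a1, chr11:67237562-67237861 (plus strand) for Myh4 and chr8:123894726-123895025 (minus strand) for Acta1.
Ckm: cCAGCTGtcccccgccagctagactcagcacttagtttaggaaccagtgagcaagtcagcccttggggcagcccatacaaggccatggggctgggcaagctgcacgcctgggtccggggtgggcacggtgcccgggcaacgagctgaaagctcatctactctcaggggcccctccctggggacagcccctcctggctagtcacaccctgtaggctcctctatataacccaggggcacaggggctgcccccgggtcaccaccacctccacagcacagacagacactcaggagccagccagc
Atp2a1: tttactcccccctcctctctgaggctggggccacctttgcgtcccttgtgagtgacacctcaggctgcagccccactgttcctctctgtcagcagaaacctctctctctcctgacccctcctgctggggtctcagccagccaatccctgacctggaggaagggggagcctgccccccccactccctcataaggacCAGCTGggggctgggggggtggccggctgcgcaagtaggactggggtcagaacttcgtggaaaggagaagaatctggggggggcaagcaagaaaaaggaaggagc
Myh4: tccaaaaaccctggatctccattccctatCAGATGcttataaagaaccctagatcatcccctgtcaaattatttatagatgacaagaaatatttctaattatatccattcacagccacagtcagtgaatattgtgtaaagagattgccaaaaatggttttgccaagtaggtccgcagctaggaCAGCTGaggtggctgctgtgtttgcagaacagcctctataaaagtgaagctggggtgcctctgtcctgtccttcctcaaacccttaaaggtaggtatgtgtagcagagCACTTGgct
Acta1: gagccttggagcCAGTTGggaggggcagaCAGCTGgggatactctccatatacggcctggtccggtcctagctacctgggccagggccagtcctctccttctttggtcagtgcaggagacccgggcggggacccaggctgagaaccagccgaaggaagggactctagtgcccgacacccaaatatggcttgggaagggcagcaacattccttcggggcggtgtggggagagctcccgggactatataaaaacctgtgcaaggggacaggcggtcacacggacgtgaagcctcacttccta

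Ckm and Atp2a1 held 1 E-box each, Acta1 2 and Myh4 3. E-boxes are common in such windows: 72.3% of 32544 RefSeq promoters of this length held at least 1 and 17.6% held 3 or more, with a median of 1. Of the 11 genes that passed, 10 held one. A CArG box, the site of serum response factor, was found for Acta1 and Myh4 and in 1.64% of all windows. TATAAA, searched on both strands, was also found for Acta1 and Myh4 and in 13.6% of windows. The full palindromic estrogen response element occurred in 0.0707% of windows and the full androgen or glucocorticoid response element in 0.00922%, and 0 of the 11 held either. A MEF2 site was found for Esf1 and in 3.70% of windows. A match or its absence in these windows is only a description of letters.

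Other skeletal muscle genes gave a mixed picture. Of 24 genes in the muscle list 14 were measured, 11 passed the filter and 4 were called, all higher in males. Apart from the 3 genes that reached the filter through males only, 8 members were tested, of which 1 (Acta1) was called, 4 had a difference above 0, and the median was 0.07 against -0.0019 for all autosomal genes. Tnnc2 and Tnnt3 fell just short of the filter with 4 male libraries and no female library at 0.5 FPKM. Tnnc2, the fast-fibre troponin C, was listed at 0 in all 5 female libraries and measured 1.28, 0.827, 0.629, 1.06 and 0.391 FPKM in male replicates 1 to 5. Tnnt3, the fast-fibre troponin T, measured 0.0470, 0.0808, 0, 0.110 and 0 FPKM in females and 0.286, 0.869, 0.504, 0.904 and 0.648 FPKM in males. Both showed males above females without overlap, as just inside the filter Ckm and Atp2a1 did. A fit with no filter gave 13 calls, the 11 above with Tnnc2 (difference 0.86, SE 0.09, adjusted p = 2.4e-05, limma) and Tnnt3 (0.64, SE 0.10, adjusted p = 0.00402, limma).

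Among the members that did not pass, Mylpf, a fast-fibre myosin light chain, averaged 0.580 FPKM (SD 0.239) in females and 1.02 FPKM (SD 0.241) in males (difference 0.36, adjusted p = 0.359, limma). Eno3, the muscle enolase, averaged 1.86 and 2.32 FPKM (0.24, adjusted p = 0.427, limma). The Z-disc gene Tcap averaged 0.474 and 0.636 FPKM (0.15, adjusted p = 0.691, limma). Ryr1, the calcium release channel of muscle, differed by -0.04, Cox6a2, a muscle subunit of cytochrome oxidase, by -0.08, Pygm, the muscle glycogen phosphorylase, by -0.05, and Pvalb by -0.02, with adjusted p of 0.882 to 0.971 (limma). Pvalb marks fast interneurons as well as fast muscle and held 28.9 to 44.7 FPKM in the C57 libraries. Myl1, which did not reach the filter, measured 0.316 to 0.534 FPKM in females and 0.392 to 0.892 FPKM in males (0.15, adjusted p = 0.575 with no filter, limma).

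The low-level muscle genes stood higher in all 5 male C57 libraries than in any of the other 15. Summed over Ckm, Atp2a1, Myh4, Tnnc2 and Tnnt3, chosen after their values were seen, the level was 0.0488 to 0.253 FPKM in female C57, 2.93 to 4.94 FPKM in male C57, 0.282 to 0.482 FPKM in female KO and 0.159 to 0.444 FPKM in male KO. Over all 14 measured members the sum was 48.8 to 65.1 FPKM in female C57 and 50.4 to 69.3 FPKM in male C57, most of it Pvalb. The source of these transcripts in the dissected tissue was not tested.

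**Figure D2:**
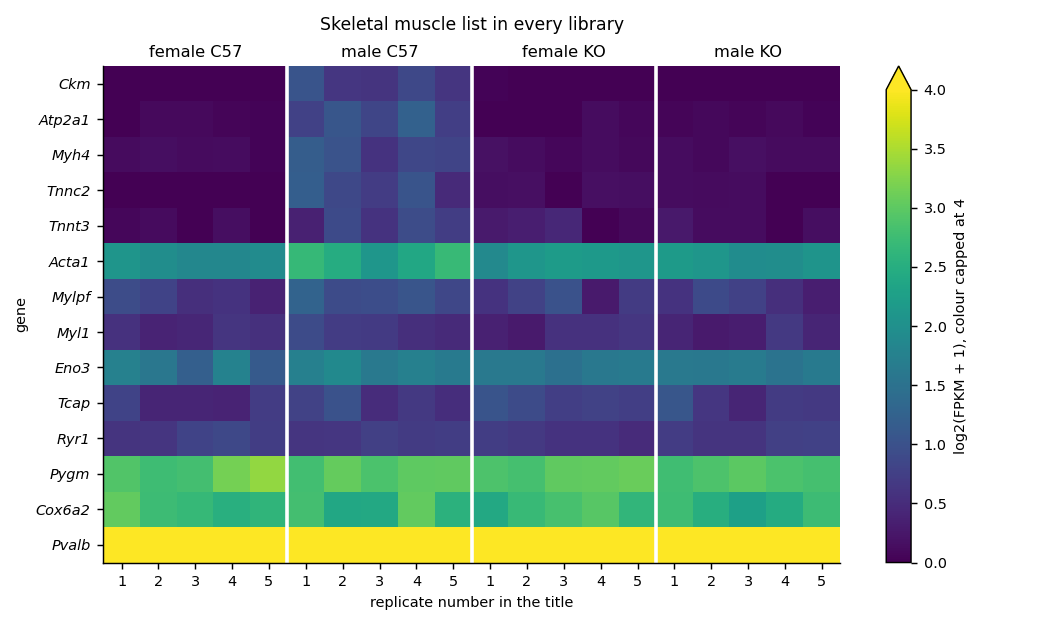
Colour gives log2(FPKM + 1), limited at 4, for the 14 measured members of the muscle list in each of the 20 libraries, by group and replicate number. The 5 uppermost genes are near 0 in every library but the 5 male C57 libraries, where they summed to 2.93 to 4.94 FPKM.

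The other 5 genes higher in males were expressed well above the filter in every library. Ccdc88a encodes girdin, an actin-binding signalling protein of migrating and growing neurons (chr11:29373658-29510808). It measured 18.1, 18.1, 17.1, 18.9 and 19.0 FPKM in female replicates 1 to 5 and 21.2, 21.4, 24.6, 22.2 and 21.4 FPKM in male replicates 1 to 5. All males lay above all females, with male replicate 3 the highest. The difference was 0.27 (SE 0.04, adjusted p = 0.00641, limma), a ratio of means of 1.21, and the call held without each C57 library in turn.

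Ola1, an Obg-family ATPase (chr2:73092801-73218924), showed the smallest difference of the 11 genes that passed and also the smallest standard error. Its values were 29.6, 29.5, 30.2, 31.0 and 30.9 FPKM in females and 33.6, 33.0, 33.6, 33.2 and 33.4 FPKM in males. The groups did not overlap, and the difference was 0.14 (SE 0.02, adjusted p = 0.0177, limma). Habp4, a hyaluronan- and RNA-binding protein (chr13:64161824-64186537), measured 17.8, 17.8, 17.3, 17.1 and 17.8 FPKM in females and 20.9, 20.5, 22.6, 19.6 and 19.5 FPKM in males. Its male libraries were all higher and more spread than its female libraries, with a difference of 0.22 (SE 0.04, adjusted p = 0.0222, limma).

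Ankrd12, an ankyrin-repeat nuclear cofactor (chr17:65967501-66077089), measured 20.3, 21.7, 20.1, 19.8 and 22.8 FPKM in females and 25.2, 23.5, 27.3, 26.4 and 24.0 FPKM in males. Esf1, a nucleolar protein of ribosomal RNA processing (chr2:140119883-140170564), measured 12.7, 13.3, 14.1, 14.6 and 14.8 FPKM in females and 16.0, 16.1, 17.6, 17.3 and 16.7 FPKM in males. In both genes the lowest male library was above the highest female library. The differences were 0.26 for Ankrd12 (SE 0.05, adjusted p = 0.0383, limma) and 0.25 for Esf1 (SE 0.05, adjusted p = 0.0412, limma). Without female C57 replicate 3 the adjusted p was 0.0637 for Ola1, 0.0793 for Habp4, 0.123 for Ankrd12 and 0.0887 for Esf1, and without male C57 replicate 1 it was 0.0561, 0.0658, 0.0775 and 0.0561 in the same order. With adjustment over autosomal genes alone the adjusted p was 0.0616 for Ankrd12 and 0.0636 for Esf1. With a trend on GC content removed it was 0.185 for Ankrd12, 0.117 for Esf1 and 0.237 for Ola1, whose difference was then 0.10. Across the 10 fits that left out 1 C57 library the differences of these 4 genes stayed positive.

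Nat8f5 and Sema4c were the genes lower in males. Nat8f5, a member of the Nat8 family of N-acetyltransferases (chr6:85817218-85820972), measured 1.31, 1.76, 1.08, 1.29 and 1.56 FPKM in female replicates 1 to 5 and 0.745, 0.488, 0.673, 0.502 and 0.270 FPKM in male replicates 1 to 5. Every male library was below every female library, and the gene fell by 0.65 on the log2(FPKM + 1) scale (SE 0.11, adjusted p = 0.0177, limma). Its model overlaps that of Nat8f6 on the same strand, and the family has near-identical copies, so how reads were shared among them is uncertain. The adjusted p was 0.0507 to 0.0691 without female replicate 2, female replicate 5, male replicate 2, male replicate 4 or male replicate 5.

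Sema4c, a transmembrane semaphorin that signals through plexin receptors (chr1:36548639-36558349), was at the threshold. It measured 1.86, 2.24, 1.96, 2.21 and 1.86 FPKM in females and 1.62, 1.53, 1.34, 1.55 and 1.42 FPKM in males, again without overlap. It fell by 0.28 (SE 0.06, adjusted p = 0.0499, limma). Without any 1 of 9 of the 10 C57 libraries, all but female replicate 5, its adjusted p was 0.0566 to 0.158, and it was 0.0787 with adjustment over autosomal genes alone and 0.228 with a trend on GC content removed. The next 3 genes on the female side did not pass. They were Gpnmb, a glycoprotein of activated microglia (1.05 against 0.622 FPKM, difference -0.33, adjusted p = 0.0791, limma), the transcription factor Mycn (2.41 against 1.72 FPKM, -0.33, adjusted p = 0.0933, limma) and Ring1 (7.17 against 5.71 FPKM, -0.29, adjusted p = 0.113, limma).

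**Figure D3:**
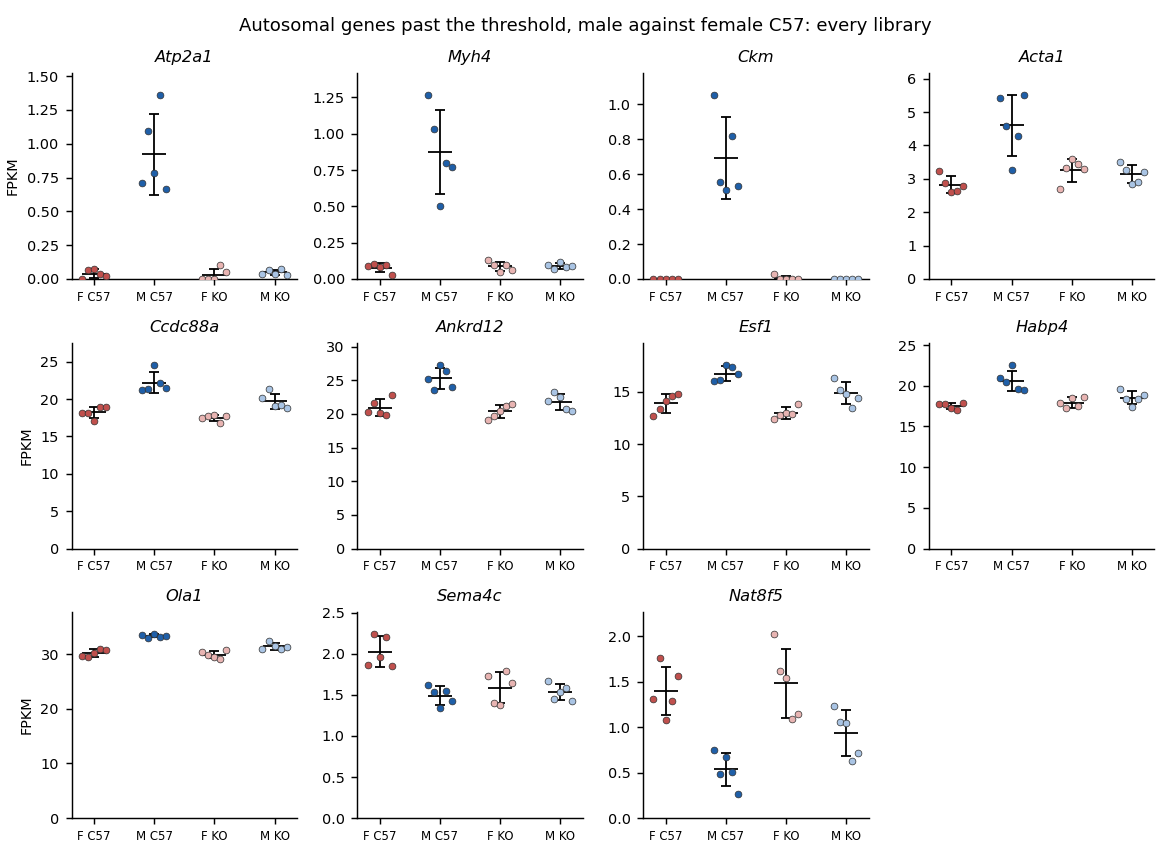
FPKM of the 11 autosomal genes past the threshold in each of the 20 libraries, 5 points a group, with the mean and SD as bars and every axis starting at 0. In each panel the 5 male C57 points lie all above or all below the 5 female C57 points, by the smallest margin for Acta1 (3.27 against 3.22 FPKM).

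Genes of sex steroid action gave no call in the C57 contrast. Of 28 genes in that list 16 were measured and 15 autosomal members were tested. The nuclear estrogen receptors and aromatase were not among the 15, so the contrast does not cover them. None of the 15 passed the threshold, none had an unadjusted p below 0.05, and the median difference was 0.01. The progesterone receptor Pgr averaged 2.70 FPKM (SD 0.268) in females and 2.76 FPKM (SD 0.244) in males, and the membrane estrogen receptor Gper1 averaged 0.876 and 0.795 FPKM. Members of the steroid reductase family were also close, with Srd5a1 at 3.36 and 3.63 FPKM and Srd5a3 at 2.92 and 2.80 FPKM. Among the steroid dehydrogenases, Hsd17b4 averaged 16.4 and 17.0 FPKM, Hsd17b7 4.57 and 4.43 FPKM, Hsd17b11 12.3 and 12.4 FPKM, and Akr1c14 0.630 and 0.706 FPKM. Hsd17b12 averaged 30.1 and 32.9 FPKM, with 16.0 FPKM in female replicate 3 against 29.7 to 36.2 FPKM in the other 9 C57 libraries. Cyp7b1, which hydroxylates neurosteroids, averaged 14.1 and 13.2 FPKM, and the progesterone-binding Pgrmc2 24.1 and 24.3 FPKM. The coactivators Ncoa1, Ncoa2 and Ncoa3 differed by 0.01, -0.01 and -0.01, and the growth hormone receptor Ghr by 0.03. The adjusted p of these 15 members was 0.609 or more (limma).

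Autosomal genes of X inactivation and its Polycomb and silencing machinery gave no call either. All 25 were tested and none passed, with 2 higher and 1 lower in males at an unadjusted p below 0.05 and a median difference of 0.01. Over all autosomal genes 5.77% were higher and 4.5% lower at that p, so these counts set the list little apart. The lower gene was Ring1, a ubiquitin ligase of Polycomb complex PRC1, which measured 7.31, 6.74, 7.04, 7.99 and 6.80 FPKM in females and 5.95, 5.80, 4.63, 6.22 and 5.94 FPKM in males. Its groups did not overlap, with male replicate 3 the lowest. The higher pair were Wtap (9.62 and 10.5 FPKM, difference 0.11, adjusted p = 0.404, limma), a subunit of the RNA methylation complex, and Rnf2 (12.6 and 14.1 FPKM, 0.16, adjusted p = 0.474, limma), the partner ligase of Ring1. Among the remaining silencing factors, none of which passed, Smchd1 differed by 0.01, Dnmt1 by -0.01, Ezh2 by 0.05, Eed by -0.07, Spen by -0.03, Ciz1 by 0.04, Lbr by -0.04, Rbm15 by -0.01, Yy1 by 0.03, Ctcf by 0.01, Hdac3 by -0.02, Hnrnpk by 0.02 and Lrif1 by 0.12. The histone demethylases Kdm5a, Kdm5b and Kdm6b differed by 0.01, 0.03 and -0.05, and Ezh1 by 0.03. Jarid2, Pcgf3 and Pcgf5 differed by 0.17, 0.04 and -0.02. Hnrnpu differed by -0.16 and varied from 31.2 to 55.3 FPKM, and Suz12 by -0.16, with 4.68 FPKM in male replicate 5 against 10.8 to 12.2 FPKM in the other 9 C57 libraries.

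Markers of hippocampal cell types were present and gave no call in the C57 contrast. The lists of dentate granule cells, CA1 pyramidal cells and CA3 or CA2 pyramidal cells had 12, 10 and 11 tested members with medians of -0.01, 0.12 and -0.04. C1ql2, a synaptic protein of dentate granule cells, averaged 32.6 FPKM (SD 3.27) in females and 25 FPKM (SD 2.06) in males (difference -0.37, adjusted p = 0.206, limma). The CA1 gene Man1a averaged 9.74 and 10.8 FPKM (0.14, adjusted p = 0.394, limma). Interneuron (16 tested), astrocyte (12), oligodendrocyte (11), oligodendrocyte precursor (8), microglia (12), endothelial (12) and pericyte or smooth muscle lists (9) had medians between -0.04 and 0.08. Above 0 were 8 of 10 CA1 and 9 of 11 oligodendrocyte genes, and below 0 were 10 of 12 microglia genes. The other lists were less one-sided. At an unadjusted p below 0.05 (limma), 3 CA1 genes were higher in males. So were 2 genes each of the interneuron, endothelial and pericyte or smooth muscle lists. In the dentate and astrocyte lists 1 gene each was lower. Over all autosomal genes 5.77% were higher and 4.5% lower. In such bulk tissue a change in the number of cells and a change in RNA per cell cannot be told apart.

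Markers of tissue next to the hippocampus varied more from library to library. The summed level of the 16 choroid plexus genes was 38.0 to 1051 FPKM in female C57 and 50.1 to 219 FPKM in male C57, with a median difference of -0.14 over 6 tested members and none called. Female C57 replicate 4 held the highest sum. The 9 tested meningeal fibroblast genes had a median of -0.23 with 7 below 0. Col1a1, the chain of fibrillar collagen in the meninges, averaged 1.05 FPKM (SD 0.179) in females and 0.614 FPKM (SD 0.0646) in males (difference -0.34, adjusted p = 0.183, limma), and its groups did not overlap. Collagen and laminin genes as a list were mostly lower in males, 18 of 22 with a median of -0.08 and 5 at an unadjusted p below 0.05, and 20 of 22 with a median of -0.08 without male C57 replicate 3. Over all autosomal genes 6365 of 12487 were below 0, and 4.5% were lower at an unadjusted p below 0.05, both with male C57 replicate 3 included. Col6a1 had the smallest p of the collagen and laminin list, at 4.37, 5.78, 4.77, 5.33 and 5.79 FPKM in females and 2.89, 4.34, 3.50, 3.76 and 2.85 FPKM in males (difference -0.48, SE 0.12, adjusted p = 0.151, limma). All its male libraries lay below all its female libraries, and it did not pass. The meningeal list summed to 24.5 to 38.3 FPKM in female C57 and 21.3 to 30.5 FPKM in male C57, and the part of these cells in the collagen values was not tested.

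With all C57 libraries, genes of antigen presentation and interferon response were the most one-sided of the lists with at least 10 tested members. They gave no call. Of 20 tested members 19 were lower in males and the median was -0.19. An unadjusted p below 0.05 was reached by 7, all lower, beside 4.5% lower at that p over all autosomal genes. Without male C57 replicate 3 the median was -0.16 with 18 of 20 below 0, beside 20 of 22 in the collagen and laminin list. Isg15, a ubiquitin-like protein induced by interferon, averaged 2.20 FPKM (SD 0.781) in females and 1.35 FPKM (SD 0.304) in males (difference -0.42, adjusted p = 0.358, limma), with female values of 1.32 to 3.11 FPKM and male values of 1.07 to 1.7 FPKM. Ifit1, an interferon-induced RNA sensor, averaged 1.97 and 1.39 FPKM (-0.30, adjusted p = 0.359, limma). The class I heavy chains H2-K1 and H2-T23 averaged 10.1 and 8.13 FPKM and 2.89 and 2.27 FPKM, with adjusted p of 0.408 and 0.414 (limma). In all 4 of these genes the groups overlapped. The microglial list had a median of -0.04 and summed to 243 to 271 FPKM in females and 247 to 269 FPKM in males, and the part of these cells in the interferon values was not tested.

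Respiratory chain genes leaned to the female side, by less without male C57 replicate 3. Cytosolic ribosomal protein genes leaned to the female side with that library and not without it, and mitochondrial ribosomal protein genes showed no clear side. Among all 12487 autosomal genes 6365 were below 0, and 4.5% were lower in males at an unadjusted p below 0.05 (limma). These all-gene values include male C57 replicate 3 and were not computed without it. Of 89 nuclear genes of oxidative phosphorylation, 66 were lower in males with a median of -0.07 and 16 at an unadjusted p below 0.05. Their summed level was 5745 to 6169 FPKM in female C57, 4662 FPKM in male C57 replicate 3 and 5503 to 6175 FPKM in the other 4 male C57 libraries. Without that library 52 of 89 were below 0 and the median was -0.02. For 78 cytosolic ribosomal protein genes the count was 61 with a median of -0.06, and 31 with a median of 0.01 without that library. For 78 mitochondrial ribosomal protein genes it was 44 with a median of -0.02, and 34 with a median of 0.02 without it. Atp5k, a small subunit of ATP synthase, measured 151, 139, 138, 137 and 144 FPKM in females and 113, 130, 90.2, 123 and 116 FPKM in males. Its groups did not overlap, and it did not pass (difference -0.32, adjusted p = 0.183, limma). Ndufb10 of complex I averaged 77.9 and 60.2 FPKM (-0.37, adjusted p = 0.183, limma), and Cox8a of complex IV 369 and 314 FPKM (-0.24, adjusted p = 0.22, limma).

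Synaptic and activity-related lists held no call. Of 33 immediate early and activity-induced genes 2 were higher and 2 lower at an unadjusted p below 0.05. Over all autosomal genes the shares at that p were 5.77% higher and 4.5% lower, to be set beside this list and the circadian list. Plk2, a synaptic kinase induced by activity, measured 50.9, 49.1, 46.7, 48.4 and 48.4 FPKM in females and 57.4, 52.4, 55.5, 52.6 and 55.3 FPKM in males, with every male above every female (difference 0.16, adjusted p = 0.128, limma). In the circadian list 4 of 21 genes were higher in males at an unadjusted p below 0.05 and none lower, among them Bhlhe40 (22.7 and 25.8 FPKM, 0.17, adjusted p = 0.386, limma) and Cry1 (3.87 and 4.36 FPKM, 0.14, adjusted p = 0.435, limma). The labels do not give the hour of tissue collection. The cholesterol (21 tested), imprinted (26), glucocorticoid (20), heat shock (30) and glutamate receptor (21) lists had medians of -0.02, -0.05, 0.07, 0.0016 and -0.01. Those of GABA-A receptor subunits (11), postsynaptic scaffolds (21), neuropeptides (19), ependymal cells (10) and erythrocytes (6) were 0.04, -0.05, 0.02, 0.01 and -0.03.

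Genes that are zinc finger proteins of the Zfp series included 24 higher and 11 lower at an unadjusted p below 0.05 among 358 tested, with a median of 0.01, beside shares of 5.77% and 4.5% over all autosomal genes. Zfp677 averaged 0.900 FPKM (SD 0.173) in females and 1.27 FPKM (SD 0.102) in males (difference 0.26, adjusted p = 0.192, limma). In KO mice the same gene averaged 0.755 and 1.16 FPKM in females and males and passed there (0.30, adjusted p = 0.0214, limma).

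Most of the largest differences did not pass. A difference of at least 0.5 on the log2 scale was reached by 93 genes, of which 5 passed and 8 had groups that did not overlap. Over all autosomal genes 0.0881% passed and 2.15% did not overlap. For 63 of them the 10 C57 values showed a gap wider than 50% of their whole range. Of 599 autosomal genes with a range of at least 1 log2 unit, 342 had such a gap (2.74% of the autosomal genes). The gap sets an upper level apart from a lower level, and values within a level can still be spread. Of the 342, 172 had a single library at one level. Atp2a1 and Ckm were the 2 that split by sex exactly and that passed. Gene models that overlap another on the same strand made up 29.5% of the 342 and 22.1% of all autosomal genes.

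For Mboat2 and Prkar2b, chosen after their values were seen, the number of libraries at the upper level differed by 4 between the sexes. Mboat2, a lysophospholipid acyltransferase (chr12:24830879-24964397), measured 6.53, 2.67, 7.04, 6.70 and 7.27 FPKM in females and 2.70, 2.88, 2.80, 2.45 and 2.67 FPKM in males (difference -0.87, adjusted p = 0.186, limma). Prkar2b, a regulatory subunit of protein kinase A (chr12:31958476-32061296), measured 4.77, 4.99, 4.79, 4.67 and 4.90 FPKM in females and 11.4, 13.5, 4.52, 13.6 and 11.6 FPKM in males (difference 0.95, adjusted p = 0.347, limma). In both 1 library sat at the level of the other sex. The KO libraries held both levels of both genes: Mboat2 was at its upper level in 2 female and 0 male KO libraries, and Prkar2b in 3 and 2.

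Other genes of this kind crossed the sexes. Tmem127 measured 21.8, 1.66, 20.4, 1.17 and 0.862 FPKM in females and 21.2, 21.4, 0.980, 21.0 and 22.3 FPKM in males, and Rac1, a small GTPase of the actin cytoskeleton, 75.5, 28.0, 75, 75.8 and 13.3 FPKM in females and 73.4 to 81.9 FPKM in males. Foxp1, a forkhead factor of pyramidal neurons, was at 1.71 FPKM in female replicate 4 and 7.28 to 7.86 FPKM in the other 4 females, and at 9.03 FPKM in male replicate 5 and 1.63 to 2.03 FPKM in the other 4 males. Kmt5a, a histone methyltransferase, was at 3.38 FPKM in female replicate 4 and 8.0 to 9.73 FPKM in the other 9 C57 libraries. Whether these levels are states of the tissue or of the estimate was not tested.

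**Figure D4:**
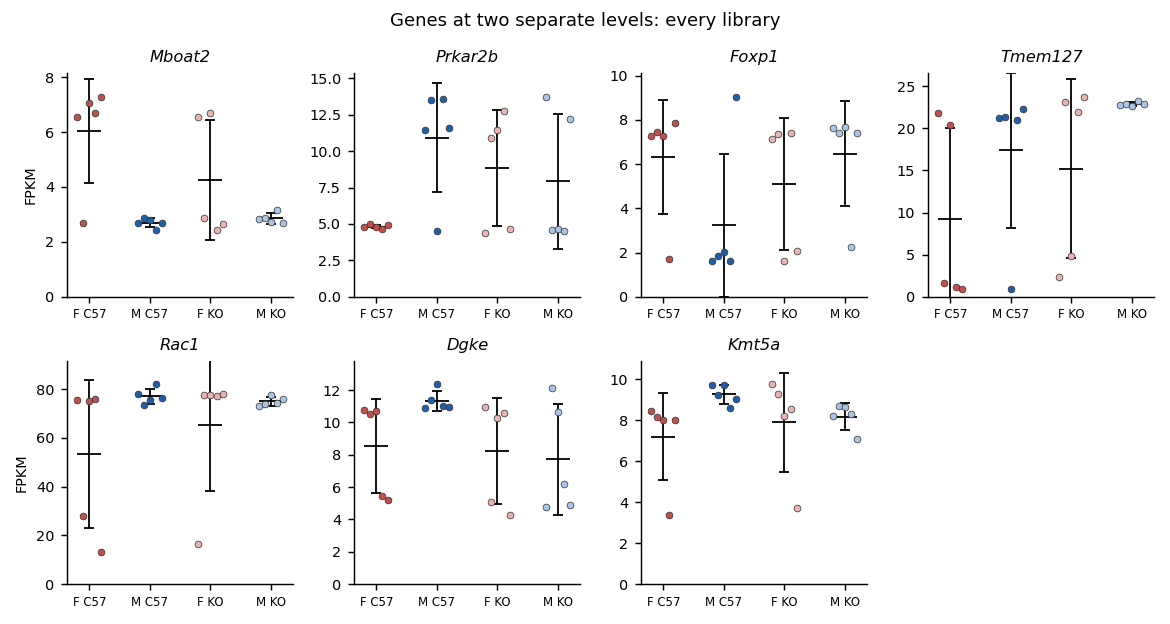
FPKM of 7 autosomal genes at 2 separate levels, chosen after their values were seen, in each of the 20 libraries, with the mean and SD of each group of 5 as bars. Single points sit at the level of the other group, as for Mboat2 in 1 of 5 female C57 libraries, so the SD often spans both levels, and SD bars that pass the axis limits are clipped for Tmem127, Foxp1 and Rac1.

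Some genes of moderate difference were separated by sex without passing. Trnt1, the enzyme that adds CCA to transfer RNA, measured 5.76, 5.90, 5.86, 5.56 and 6.26 FPKM in females and 9.75, 6.97, 9.59, 10.2 and 8.71 FPKM in males (difference 0.54, SE 0.12, adjusted p = 0.0925, limma). Endov, an endonuclease of inosine-containing nucleic acid, measured 2.27, 2.02, 2.28, 2.10 and 1.54 FPKM in females and 4.27, 3.86, 3.37, 2.86 and 4.22 FPKM in males (0.63, SE 0.17, adjusted p = 0.206, limma). Both had all males above all females, and both were chosen after their values were seen. Nr3c2, the mineralocorticoid receptor of hippocampal neurons, measured 14.3, 22.9, 13, 10.9 and 13 FPKM in females and 35.5, 28.1, 16.6, 30.8 and 24.8 FPKM in males, with overlap (0.83, SE 0.32, adjusted p = 0.395, limma).

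The same contrast was read in the KO libraries, none of which enter the C57 difference. They do enter the spread behind its p-values, which was estimated over all 4 groups. There 687 autosomal genes passed (5.5%), 282 higher in males (2.26%) and 405 lower (3.24%). That count was 62 without the 4 libraries above 500 FPKM of Ttr, of which 3 are KO libraries, and 90 after a trend on GC content was removed. It was 150 without male KO replicate 1, 240, 260, 341 and 425 without female KO replicates 3, 5, 2 and 4, and 324 and 338 without male KO replicates 2 and 4. Of the 11 genes called in C57, 9 had the same sign in KO, 2 passed in KO, and all 11 had a smaller difference there. The 11 were picked for their differences in C57, which by itself favours smaller ones in other libraries.

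Ccdc88a and Esf1 were the 2 genes called in both. The 2 contrasts share their estimate of the spread, so these calls are not independent, and neither gene passed with the C57 libraries fitted alone. Ccdc88a measured 16.8 to 17.9 FPKM in female KO and 18.8 to 21.3 FPKM in male KO (difference 0.16, SE 0.04, adjusted p = 0.0338, limma). Esf1 averaged 13 FPKM in female KO and 14.8 FPKM in male KO (0.18, SE 0.05, adjusted p = 0.0387, limma). Nat8f5 averaged 1.48 and 0.937 FPKM (-0.35, adjusted p = 0.0703, limma), Ola1 29.9 and 31.4 FPKM (0.07, adjusted p = 0.1, limma), Ankrd12 20.4 and 21.8 FPKM (0.09, adjusted p = 0.275, limma) and Habp4 17.9 and 18.5 FPKM (0.04, adjusted p = 0.538, limma), in females and males. Sema4c averaged 1.59 and 1.53 FPKM (-0.03, adjusted p = 0.79, limma). The muscle genes were near their female C57 level in both KO sexes: Ckm was listed at 0 in 4 of 5 female and 5 of 5 male KO libraries, Atp2a1 averaged 0.0307 and 0.0481 FPKM in female and male KO, Myh4 0.0865 and 0.0901 FPKM, and Acta1 3.26 and 3.15 FPKM.

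**Figure D5:**
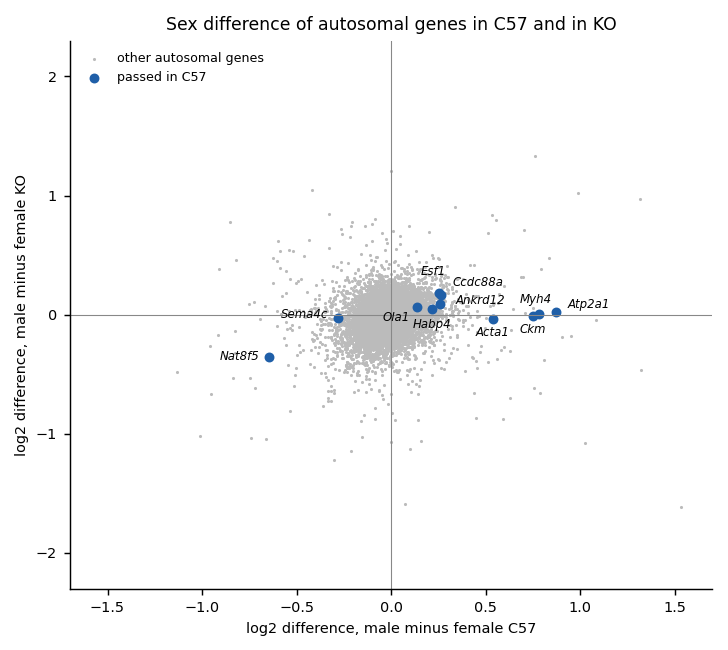
Each point is an autosomal gene, with the male minus female difference in C57 on the horizontal axis and in KO on the vertical axis, both in log2(FPKM + 1). The 4 muscle genes past the threshold in C57 lie on the horizontal axis, with KO differences of -0.04 to 0.02, while Ccdc88a, Esf1 and Nat8f5 lie off it in the same direction in both.

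A test of the difference between the 2 sex contrasts called 6 autosomal genes (0.048%), all with a smaller or opposite male minus female difference in KO, while 1262 had an unadjusted p below 0.05 (10.1%). Atp2a1, Ckm and Myh4 are among the 6, and since they reached the filter through the male C57 libraries alone, the filter favoured a negative value for them. The difference of the differences, KO minus C57, was -0.85 for Atp2a1 (adjusted p = 0.000673, limma), -0.76 for Ckm (adjusted p = 0.000673, limma) and -0.78 for Myh4 (adjusted p = 0.00165, limma). It was -0.66 for the forkhead factor Foxo6 (adjusted p = 0.0265, limma), -0.31 for the F-box protein Fbxl14 (adjusted p = 0.0438, limma) and -0.24 for Emc1 of the membrane protein insertion complex (adjusted p = 0.0495, limma). In C57 none of these last 3 passed: Foxo6 averaged 4.85 and 5.30 FPKM, Fbxl14 8.49 and 9.24 FPKM and Emc1 10.4 and 11.3 FPKM in females and males. Their KO averages were 8.05 and 5.15 FPKM, 9.75 and 8.37 FPKM, and 11.8 and 10.7 FPKM. The count was 3 without any 1 of 9 libraries, which were male KO replicates 1, 2, 3 and 5, male C57 replicate 5, female C57 replicate 3 and the female KO libraries numbered 1, 4 and 5. For Ccdc88a, Acta1, Ola1, Habp4, Ankrd12, Esf1, Nat8f5 and Sema4c the difference between the contrasts did not pass (adjusted p of 0.197 to 0.755, limma).

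Across all autosomal genes the 2 sex contrasts were weakly related, with Pearson r = 0.20 and Spearman rho = 0.28 over 12487 genes, which are not independent of each other. Of the 172 genes with all C57 males above all C57 females, 133 had a positive difference in KO (77.3%, against 46.9% of all autosomal genes) and 22 passed there in the same direction. Of the 96 with all C57 males below, 76 were negative in KO (79.2%, against 53.1%) and 12 passed. GC content moved with the C57 contrast. The median GC content of transcripts was 50.7% over 12417 genes, 46.1% for those higher in males at an unadjusted p below 0.05 in C57 and 55.3% for those lower, and r between the C57 difference and GC content was -0.24. The slope of a library's log2 values on GC content, per 10 percentage points, was -0.03 to 0.03 in female C57, -0.10 to 0.01 in male C57, 0.07 to 0.08 in female KO and -0.07 to 0.01 in male KO. The part of GC content in the shared direction was not tested.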

How the data were processed

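Hippocampal RNA of 20 mouse samples was extracted with TRIzol, and libraries were made from 1.3 ug with the SMARTER mRNA-Seq kit, per the labels' protocols. Each deposited file gives FPKM per gene with its locus, per the file headers. FastQC, HISAT2, StringTie and mm10 are named in the submitters' processing notes, without versions. For the annotation release, trimming and strand setting, nothing is given in the sources used here. Only FPKM is used, so depth and counting error are unknown.

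Genes with at least 0.5 FPKM in 5 of 10 C57 libraries were kept (12956 on all chromosomes, 12487 autosomal). log2(FPKM + 1) was fitted with 4 group means over 20 libraries by limma 3.58.1 in R 4.3.3, with an intensity trend, after a check on simulated data. Benjamini-Hochberg adjustment ran over all 12956 genes, with a threshold of 0.05. GC content and overlaps came from the GENCODE M21 annotation of the same build. Genes were named by this rule: up to 12 past the threshold in each direction with a mean of at least 1 FPKM in either C57 group, the 5 smallest p where fewer than 5 passed, up to 4 members of each list described, and all members of the sex steroid, X-inactivation and muscle lists. The 3 interaction genes Foxo6, Fbxl14 and Emc1 were named because they passed that test. The members and lists were chosen with earlier results of these data known. Alternatives covered the filter, pseudocount, scaling, weights, GC content, Ttr, a replicate block, the libraries fitted and each library left out.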

Additional observations from a re-analysis of the deposited data

Results flagged for a closer look

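In 3 of 42 groups of 5 libraries, 1 library stood apart from the other 4 by Dixon's criterion, which chance alone meets in about 1 of 20 groups. Mboat2, Prkar2b, Foxp1 and Suz12, in which single libraries also stood apart, were not among these groups. The 3 of 42 therefore does not describe autosomal genes at large. Ccdc88a was at 24.6 FPKM in male C57 replicate 3 against 21.2 to 22.2 FPKM in the other males. Ring1 was at 4.63 FPKM in the same library against 5.80 to 6.22 FPKM. Myh4 was at 0.0260 FPKM in female C57 replicate 5 against 0.0840 to 0.103 FPKM in the other females.

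The male minus female difference itself differed between KO and C57 for 6 autosomal genes (limma interaction term). The change of the difference, KO minus C57, was -0.85 for Atp2a1, -0.76 for Ckm, -0.78 for Myh4, -0.66 for Foxo6, -0.31 for Fbxl14 and -0.24 for Emc1 on the log2(FPKM + 1) scale. Emc1 overlaps Ubr4 in the annotation, so how reads of the pair were shared is uncertain.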

How the results depend on the processing

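Of the 11 C57 calls, Atp2a1, Ckm and Myh4 were not tested with a filter of 2 FPKM and passed elsewhere, which is no independent support, since male libraries alone brought them past the usual filter. Ccdc88a failed only when the 10 C57 libraries were fitted alone. The count was 4 with a filter of 2 FPKM, 4 with the C57 libraries alone and 7 with a GC trend removed, and 5 to 12 without 1 library. The higher genes numbered 4 with the stricter filter and 4 with C57 alone, and 4 to 10 without 1 library, against 9. The lower genes, 2 in all, numbered 0 with the stricter filter or C57 alone, 1 with a pseudocount of 0.1, upper-quartile or nuclear rescaling, robust empirical Bayes, library weights, adjustment over autosomal genes alone, the GC trend removed or the 4 libraries high in Ttr left out, and 0 to 3 without 1 library. The cause was not tested. Same-numbered male and female C57 libraries had r of -0.064 to 0.056, 0 of 5 above 0.1, and no male library matched its own number best, so the numbers were not taken as pairs. A replicate block gave 6 calls, 5 higher and 1 lower, with adjusted p of 0.0821 for Ola1, 0.109 for Ankrd12 and 0.108 for Esf1 (limma). In KO the 687 calls became 90 with the GC trend removed, 62 without the libraries high in Ttr and 150 to 665 without 1 library. The 6 interaction calls became 3 with the GC trend removed or Ttr as covariate, and 3 to 7 without 1 library. Among named genes, signs turned for Ryr1 (0.0012 with the GC trend removed), Pvalb (0.018 with library weights) and, without 1 library, for Cox6a2 (-0.17 to 0.0046), Pygm (-0.11 to 0.039) and Pvalb (-0.069 to 0.065, turned without female replicate 5 or male replicate 3), none of which passed. Leaving out libraries high in Ttr, leaving male C57 replicate 3 out of the list medians, and all KO and most interaction alternatives were chosen after seeing the data. Depth is unknown, so how far counting error limits the genes near 0.5 FPKM cannot be given.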
